A study of Mus musculus with 6 samples.

Results

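Matricellular and adhesive glycoproteins are secreted proteins that sit in the extracellular matrix and are read by cells through integrins, syndecans and scavenger receptors. Fibronectin is assembled into fibrils under tension from integrins and serves as a scaffold on which collagen and other matrix proteins are laid down. Periostin, the tenascins, the thrombospondins and SPARC (osteonectin) add little to the strength of the matrix and instead tune adhesion, collagen fibril assembly and growth factor access, and osteoblasts make several of them in quantity while bone is being formed. Vitronectin is an integrin ligand made mainly by the liver and carried in blood and serum, and nidogen-1 links laminin to type IV collagen in basement membranes.

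The set held 10 genes chosen by name, Sparc, Fn1, Postn, Tnc, Tnn, Thbs1, Thbs2, Thbs3, Vtn and Nid1, and each was found once among the 17491 genes of the count table. The rule that defines the set is a list of names with no threshold on a measured value, but the list was drawn up with earlier results of these data known. The verapamil group was 3 libraries of osteoblasts treated with verapamil, a drug that blocks calcium entry through L-type channels, and the control group was 3 libraries of osteoblasts without it. The dose, the vehicle and the length of exposure are not given in the labels. Both groups were osteoblasts grown from wildtype mouse mesenchymal stem cells of tibial and femoral marrow, and both had been kept to day 7 in low-glucose medium with serum, dexamethasone, β-glycerophosphate and ascorbic acid. Whether replicates came from separate mice or dishes is not in the labels, and the p-values therefore refer to the scatter of these 6 libraries, which could be technical alone.

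Library totals ran from 18.2 M to 21.7 M reads. For the osteoblast label, 11 markers summed to 14917 to 17259 CPM (read counts scaled to library size) in verapamil libraries and 36535 to 46798 CPM in controls. None of the 11 was at or under 3 reads in all libraries. Most of both sums came from Col1a1 and Col1a2, with means of 5387 and 6034 CPM with verapamil and 17067 and 14681 CPM in control. Among the other markers, Ibsp averaged 3699 CPM with verapamil and 7287 CPM in control, and Alpl 401 and 674 CPM, both named with their values known. Bglap averaged only 16.2 CPM with verapamil and 36.2 CPM in control. The sums therefore mainly reflect the collagen genes. Macrophage markers were also abundant, with 16 markers summing to 18660 to 21065 CPM in verapamil libraries and 10246 to 12834 CPM in controls. Hypoxia markers differed among all the controls, summing to 1664 CPM in control replicate 2, 991 CPM in control replicate 1 and 575 CPM in control replicate 3. The same markers lay between 318 and 363 CPM in verapamil libraries. In such bulk samples, fewer cells of a type and less RNA per cell cannot be told apart.

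Promoter sequence is shown for the tested members with an annotated start whose 130-base window lies outside the gene itself, so that the genes that were lower with verapamil (Sparc, Postn, Tnc, Nid1, Thbs3) can be read beside Thbs2, the tested gene that did not pass the test. The sequences are RefSeq's, in build GRCm38.p6, written 5′ to 3′ on the strand of the gene and ending at the base before the start. Capitals mark a match to TATAAA (the TATA box) or to GGGCGG (the GC box that binds Sp1), in either orientation.
Sparc, chr11:55420081-55420210, minus strand: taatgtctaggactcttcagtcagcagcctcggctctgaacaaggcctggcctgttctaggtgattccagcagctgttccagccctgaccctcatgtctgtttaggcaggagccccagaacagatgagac
Postn, chr3:54359137-54359266, plus strand, before its first annotated start: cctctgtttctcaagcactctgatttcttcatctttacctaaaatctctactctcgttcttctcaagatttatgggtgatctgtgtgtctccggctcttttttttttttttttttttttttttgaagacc
Tnc, chr4:64047016-64047145, minus strand: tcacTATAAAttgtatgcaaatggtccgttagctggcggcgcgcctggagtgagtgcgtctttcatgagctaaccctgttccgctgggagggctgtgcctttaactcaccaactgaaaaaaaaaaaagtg
Nid1, chr13:13437472-13437601, plus strand: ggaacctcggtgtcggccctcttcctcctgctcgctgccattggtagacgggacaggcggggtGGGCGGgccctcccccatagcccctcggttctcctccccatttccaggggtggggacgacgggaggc
Thbs3, chr3:89215050-89215179, plus strand: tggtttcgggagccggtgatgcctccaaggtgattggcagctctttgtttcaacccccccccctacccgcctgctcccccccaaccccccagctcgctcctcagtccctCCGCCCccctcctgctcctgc
Thbs2, chr17:14694263-14694392, minus strand: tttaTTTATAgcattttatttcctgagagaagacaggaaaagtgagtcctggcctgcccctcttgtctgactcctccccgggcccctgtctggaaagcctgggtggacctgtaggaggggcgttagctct

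Across the windows of 300 bases that RefSeq's table gives for 8 of the genes, TATAAA was found in 4 genes and GGGCGG in 3, against 13.6% and 35.7% of all 32851 windows. In Postn the TATAAA match began 26 bases before its second annotated start. The TEAD motif GGAATG was found in 3 of the 8 genes and in 14.7% of all windows, and the AP-1 motif TGANTCA in 0 of the 8 and in 7.81% of all windows. Both strands were searched, and the only overlapping matches were those of the TATA motif on opposite strands in Vtn. These counts describe letters in a window and no binding. Fn1 and Thbs1 were not matched in the promoter table.

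Most of these glycoprotein genes took a smaller share of the reads in libraries from cultures treated with verapamil. Of the 10 genes, 9 had enough reads to be tested, and 8 of these 9 were lower with verapamil and 0 higher at an adjusted p under 0.05. None was higher at an unadjusted p under 0.05 by edgeR, nor by DESeq2 or limma-voom. Over all 13366 genes tested, 16.3% were lower and 15.4% higher. The 9 had a median log2 fold change of -0.80, against 0.01 for all genes tested. In the same 8 genes every verapamil library lay below every control, which held for 24.4% of all genes tested. Together the 10 genes took 1.99%, 1.92% and 2.06% of the reads in verapamil replicates 1, 2 and 3, against 3.40%, 3.52% and 3.25% in control replicates 1, 2 and 3. Adjusted p values here and below are those of the quasi-likelihood test of edgeR, corrected by the Benjamini-Hochberg method over all genes tested, and levels are CPM after TMM scaling, as mean ± SD with n = 3 per group.

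**Figure D1:**
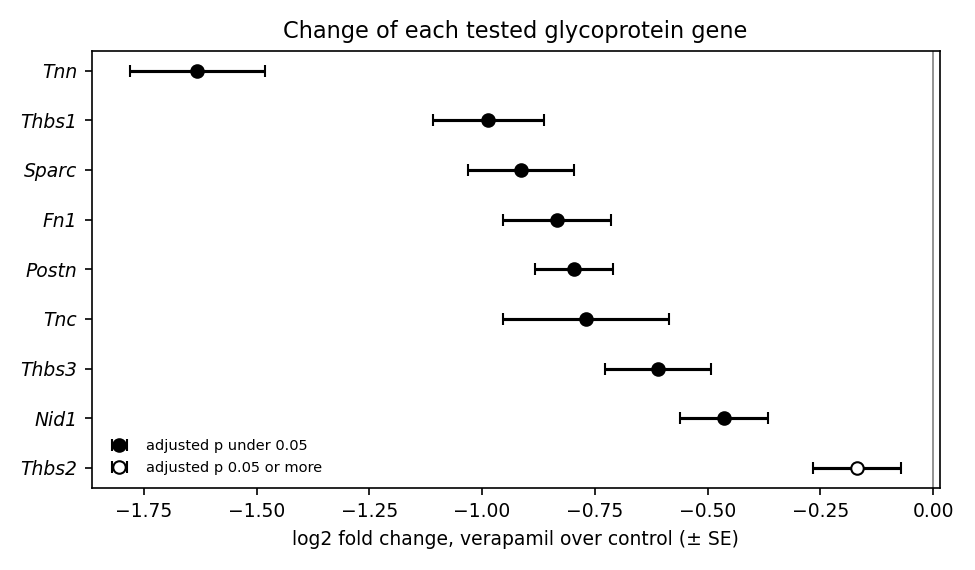
Log2 fold change of verapamil over control for the 9 tested genes, with the standard error (SE) as bars; filled points have an adjusted p under 0.05 and the open point does not. Tnn lies farthest from 0 at -1.63 and Thbs2 nearest at -0.17.

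Fibronectin and vitronectin, both ligands of αv integrins, stood at opposite ends of the range of levels. Fn1 (Entrez 14268, chr1:71585473-71653280), the fibril-forming scaffold, was at 5880, 5608 and 6226 CPM in verapamil replicates 1, 2 and 3, against 10420, 11892 and 9248 CPM in control replicates 1, 2 and 3. No verapamil library reached the lowest control. Its mean was 5905 ± 310 CPM with verapamil and 10520 ± 1325 CPM in control, which is -0.83 ± 0.12 SE as a log2 fold change (adjusted p = 0.00183). It ranked between 8 and 9 among all genes by read count in the verapamil libraries and between 3 and 4 in the controls. The gene has 8 coding transcripts in GENCODE's basic set, and a count per gene does not separate its splice forms. Vtn (Entrez 22370, chr11:78499120-78502325) had 0, 3 and 1 reads in verapamil replicates 1, 2 and 3 and 3, 1 and 2 reads in control replicates 1, 2 and 3. All 6 libraries were at or under 3 reads, the limit that a count of 0 allows, which is 0.160 CPM in verapamil replicate 1. Vtn was therefore not tested and no fold is given for it.

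Periostin and the tenascins of the set (Tnc and Tnn), which bind integrins and modulate adhesion, were all lower. Postn (Entrez 50706, chr3:54359267-54391041), a periosteal protein that aids collagen cross-linking, was at 2954, 2977 and 3087 CPM in the verapamil libraries, against 5413, 4949 and 5301 CPM in the controls. It was the member with the closest controls, and its groups lay far apart compared with their own spread. Its mean was 3006 ± 71.3 CPM with verapamil and 5221 ± 242 CPM in control (log2 fold change -0.80 ± 0.09 SE, adjusted p = 5.89e-04). Tnc (Entrez 21923, chr4:63959785-64047015), encoding tenascin-C, an anti-adhesive protein of growing and healing tissue, was at 1143, 1224 and 1134 CPM in verapamil replicates 1, 2 and 3, against 1950, 1458 and 2558 CPM in control replicates 1, 2 and 3. The groups did not overlap, but control replicate 2 lay much nearer to the verapamil libraries than control replicate 3 did. The mean was 1167 ± 49.7 CPM with verapamil and 1988 ± 551 CPM in control, which is -0.77 ± 0.18 SE in log2 terms (adjusted p = 0.0178). It did not pass when verapamil replicate 1, 2 or 3 or control replicate 1 was left out, with adjusted p of 0.0671, 0.0560, 0.0643 and 0.0556, while the fold change stayed between -0.81 and -0.75. Without control replicate 2 it was -0.96 (adjusted p = 1.61e-04).

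Tnn, encoding tenascin-N, also called tenascin-W (Entrez 329278, chr1:160085029-160153692), which marks periosteum and osteoblasts, had the largest change of the set. It was at 257, 246 and 273 CPM in verapamil replicates 1, 2 and 3, against 745, 1000.4 and 656 CPM in control replicates 1, 2 and 3. The lowest control lay at more than double the highest verapamil library. Its mean was 258 ± 13.7 CPM with verapamil and 800.5 ± 179 CPM in control, which is -1.63 ± 0.15 SE in log2 terms (adjusted p = 4.40e-04). Within libraries the Tnc to Tnn ratio of CPM was 4.45, 4.98 and 4.15 with verapamil, against 2.62, 1.46 and 3.90 in control. The log2 ratio was 2.18 ± 0.13 with verapamil and 1.30 ± 0.71 in control, a difference of 0.88. An exact two-sided permutation test gave p = 0.1, the smallest that 3 against 3 libraries allow, and 0.133 after Benjamini-Hochberg adjustment over 4 ratios.

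The thrombospondins did not move alike. Thbs1 and Thbs2 encode the trimeric forms that bind CD36 and CD47 and restrain angiogenesis, with Thbs1 also activating latent TGF-β, and Thbs3 encodes a pentameric form found in skeletal tissue. Thbs1 (Entrez 21825, chr2:118111876-118127133) was at 3953, 3771 and 3942 CPM in the verapamil libraries, against 7780, 8806 and 6523 CPM in the controls. Every control lay well above every verapamil library. Its mean was 3889 ± 102 CPM with verapamil and 7703 ± 1144 CPM in control (log2 fold change -0.99 ± 0.12 SE, adjusted p = 9.85e-04). Markers of platelets, which also carry thrombospondin-1, summed to 31.9 to 36.3 CPM in verapamil libraries and 59.3 to 75.4 CPM in controls. Of those 8 markers 2 of 4 tested were lower, Gp9 was at or under 3 reads in every library, and their part in the result was not tested.

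Thbs2 (Entrez 21826, chr17:14665500-14694262) was at 1174, 1201 and 1230 CPM in verapamil replicates 1, 2 and 3, against 1409, 1167 and 1478 CPM in control replicates 1, 2 and 3. Control replicate 2 lay below all 3 verapamil libraries, so the groups overlapped. Its mean was 1202 ± 28.0 CPM with verapamil and 1351 ± 163 CPM in control, and the log2 fold change of -0.17 ± 0.10 SE did not pass the test (adjusted p = 0.223). Without control replicate 2 it was -0.27 and passed (adjusted p = 0.00847). The Thbs1 to Thbs2 ratio of CPM was 3.37, 3.14 and 3.20 in the verapamil libraries, against 5.52, 7.55 and 4.41 in the controls, with no overlap. In log2 units the ratio was lower with verapamil by 0.81, at 1.69 ± 0.05 against 2.51 ± 0.39 in control (exact two-sided permutation p = 0.1, the smallest possible, adjusted 0.133). Thbs3 (Entrez 21827, chr3:89215180-89226841) was far less abundant, at 9.41, 12.0 and 11.5 CPM in verapamil replicates 1, 2 and 3, against 15.4, 16.5 and 18.6 CPM in control replicates 1, 2 and 3. Its groups did not overlap, and its log2 fold change was -0.61 ± 0.12 SE (adjusted p = 0.00621). Its locus overlaps that of Mtx1 on the other strand, though no exons of the 2 genes overlap in GENCODE's basic set.

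Sparc (Entrez 20692, chr11:55394159-55420080), the collagen-binding and calcium-binding protein also named osteonectin, was at 3700, 3476 and 3895 CPM in the verapamil libraries, against 6568, 7997 and 6286 CPM in the controls. No verapamil library came near the lowest control. Its mean was 3690 ± 210 CPM with verapamil and 6951 ± 917 CPM in control (log2 fold change -0.91 ± 0.12 SE, adjusted p = 0.00112). Nid1 (Entrez 18073, chr13:13437602-13512275), the laminin-to-collagen linker, was at 257, 271 and 282 CPM in verapamil libraries, against 342, 432 and 345 CPM in controls. It had the smallest change among the 8 genes that fell, at a log2 fold change of -0.46, with an SE of 0.10 (adjusted p = 0.00865). Its paralog Nid2 averaged 86.8 CPM with verapamil and 94.5 CPM in control, and its log2 fold change of -0.12 ± 0.15 SE did not pass (adjusted p = 0.580). The Nid1 to Nid2 ratio overlapped between the groups, at 2.97, 2.94 and 3.47 with verapamil and 4.02, 5.48 and 2.88 in control (exact two-sided permutation p = 0.4), so an unequal change of both nidogens was not detectable here. Exons of Fn1, Thbs1 and Nid1 overlap a noncoding gene on the other strand in GENCODE (Apol7d, Gm29233 and Gm48682), and without a stated strand setting their reads cannot be told apart.

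**Figure D2:**
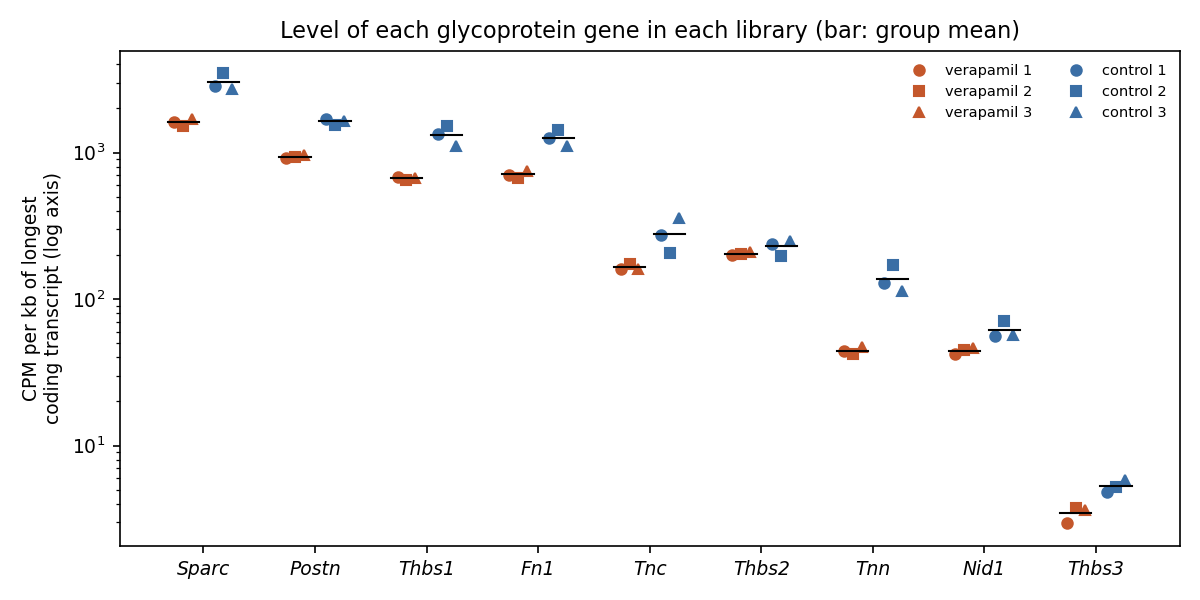
Level of the 9 tested genes as CPM per kb of the longest coding transcript, on a log axis, with 1 symbol per library, verapamil left of control, and a bar at each group mean. On this scale Sparc is highest in every library, and Tnc and Thbs2 change places between the groups.

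Levels were compared between genes per kb of the longest coding transcript. On that scale Sparc led in every library, at 1605 ± 91.3 CPM per kb with verapamil and 3022 ± 399 CPM per kb in control, followed by Postn at 938 ± 22.2 and 1629 ± 75.6 CPM per kb. Fn1 stood at 710 ± 37.3 CPM per kb with verapamil and 1265 ± 159 CPM per kb in control, and Thbs1 at 665 ± 17.4 and 1317 ± 196 CPM per kb. Their ranges overlapped in both groups, although within libraries Fn1 exceeded Thbs1 in all 3 verapamil libraries and Thbs1 exceeded Fn1 in all 3 controls, at 1115 for Thbs1 and 1112 CPM per kb for Fn1 where they were closest, in control replicate 3. Next came Thbs2 at 204 ± 4.75 CPM per kb with verapamil and 229 ± 27.7 in control, and Tnc at 164 ± 6.99 with verapamil and 280 ± 77.5 CPM per kb in control. Thbs2 exceeded Tnc in every verapamil library, whereas Tnc exceeded Thbs2 in every control. Both changes of order depend on the transcript lengths used. In CPM, Tnc exceeded Thbs2 in verapamil replicate 2 (1224 against 1201 CPM), and Fn1 exceeded Thbs1 in every library. Tnn and Nid1 overlapped with verapamil, at 44.4 ± 2.36 and 44.4 ± 2.02 CPM per kb, and were apart in control, at 138 ± 30.7 and 61.2 ± 8.37 CPM per kb. Thbs3 was lowest of the tested genes, at 3.44 ± 0.433 CPM per kb with verapamil and 5.27 ± 0.508 in control.

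**Figure D3:**
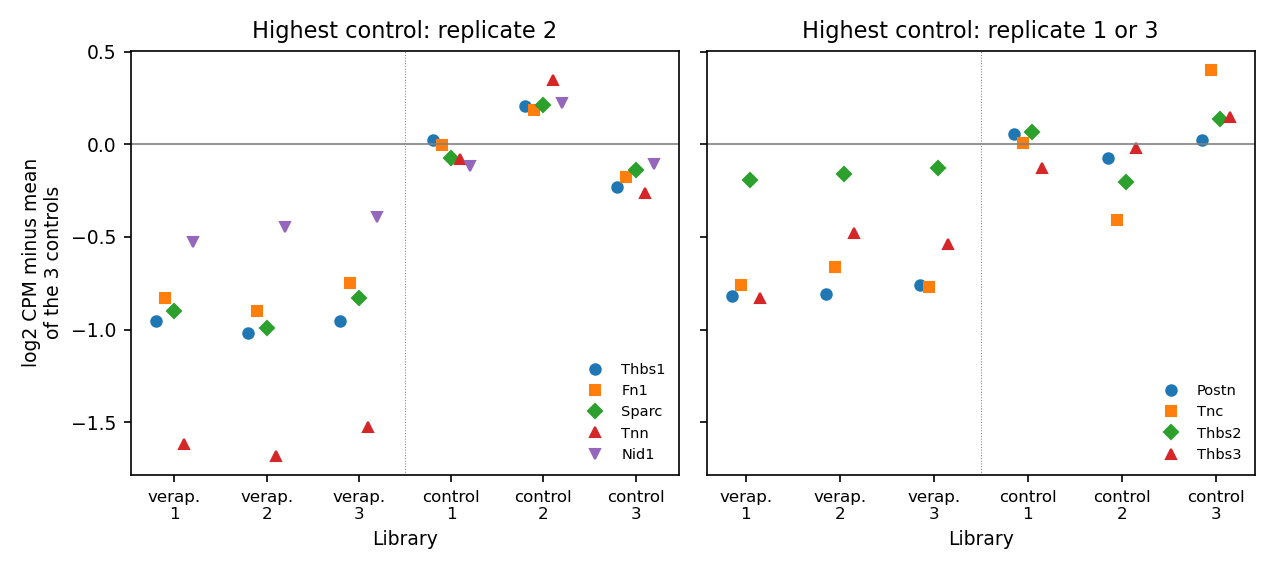
Log2 CPM of each tested gene in each library minus the mean of the 3 controls. Left, the 5 genes whose highest control was replicate 2; right, the 4 genes whose highest control was replicate 1 or 3. Verapamil libraries lie closer together than the controls for each gene except Thbs3. Control replicate 2 lies above the other controls on the left and lowest for Tnc, Thbs2 and Postn on the right.

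The members varied more among the controls than among the verapamil libraries in 8 of the 9 tested genes, the exception being Thbs3. This was not particular to the members, since control libraries also differed more over the whole table. Between pairs of libraries, the chi-square per degree of freedom was 12.1 to 47.8 among controls and 3.49 to 6 with verapamil. The share of all genes with a wider spread among controls was not counted. The highest control was 1.75 times the lowest for Tnc, 1.52 times for Tnn and 1.09 times for Postn, whereas the highest verapamil library was at most 1.28 times the lowest, in Thbs3. The controls did not vary in 1 direction. Thbs1, Fn1, Sparc, Tnn and Nid1 were highest in control replicate 2, by 0.18 to 0.34 above the control mean on the log2 scale. Tnc and Thbs2 were lowest there, by -0.41 and -0.20, and Postn was lowest there too, by -0.08. Thbs1, Fn1, Sparc and Tnn had their lowest control in replicate 3, which was the highest for Tnc and Thbs2. Hypoxia markers had the order replicate 2, 1, 3 from high to low in the same controls (1664, 991 and 575 CPM summed), and 8 of 9 of them were lower with verapamil. That count was 5, 3 and 4 when verapamil replicates 1, 2 and 3 were left out in turn, and 5 with no filter on low counts. Without control replicate 2 the same 8 members remained past the test, and Thbs2 joined them. Log2 fold changes of those 8 ran from -1.44 for Tnn to -0.35 for Nid1 in that fit. Hypoxia markers were still lower there in 7 of 9, with a median log2 fold change of -1.35. The part of the hypoxia markers in the members' values was not tested.

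**Figure D4:**
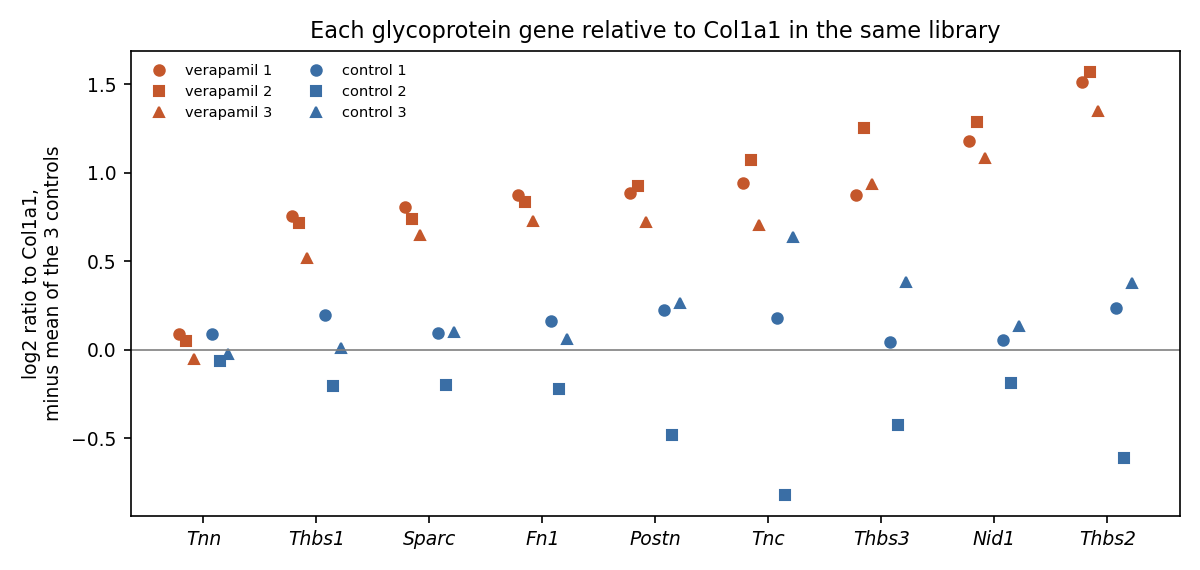
Log2 ratio of each tested gene to Col1a1 in the same library, minus the mean of the 3 controls for that gene. Tnn stays near 0 in both groups, and the other 8 genes lie higher in every verapamil library than in every control.

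A ratio to Col1a1, the main chain of bone collagen, does not depend on library scaling. Col1a1 itself had a log2 fold change of -1.66, with an SE of 0.19 (adjusted p = 6.36e-04). Col1a1 fell more than any tested member, so a higher ratio with verapamil follows from the choice of this denominator. Runx2, an osteoblast marker named with its value known, had a log2 fold change of -0.50, a smaller fall than in most tested members. Ratios to Runx2 would therefore be lower with verapamil for those members. Tnn kept nearly the same ratio of CPM to Col1a1 in all libraries, at 0.0501, 0.0489 and 0.0454 in verapamil replicates 1, 2 and 3 and 0.0501, 0.0451 and 0.0463 in control replicates 1, 2 and 3. The other 8 tested genes had higher ratios to Col1a1 in every verapamil library than in every control. Fn1 had 1.15, 1.12 and 1.04 times the CPM of Col1a1 with verapamil, against 0.702, 0.536 and 0.653 times in control. The log2 ratio to Col1a1 was higher with verapamil by 0.66 for Thbs1, 0.73 for Sparc, 0.84 for Postn, 1.18 for Nid1 and 1.48 for Thbs2. The median member had a log2 ratio of -2.15 ± 0.13 with verapamil and -3.11 ± 0.74 in control, a difference of 0.96 (exact two-sided permutation p = 0.1, the smallest possible) that was 0.55 without control replicate 2. The median was taken within each library, so it was the value of Tnc in every control and in verapamil replicate 2. In verapamil replicates 1 and 3 it was the value of Thbs2, and the difference therefore describes these 2 genes more than the set. Among 11 osteoblast markers 10 were lower, with a median log2 fold change of -1.08, including Col1a2 (-1.28), Bglap (-1.16) and Sp7 (-1.08). Most macrophage markers moved the other way over the same libraries, with 12 of 16 higher and a median of 0.53, led by Mpeg1 (1.16), Lyz2 (1.02), Tyrobp (0.88) and Cd14 (0.83). The other 4 did not pass, among them Mrc1, named with its value known, at 1274 CPM with verapamil and 1276 CPM in control. The part of a shift between these cell types in the members' values was not tested.

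**Figure D5:**
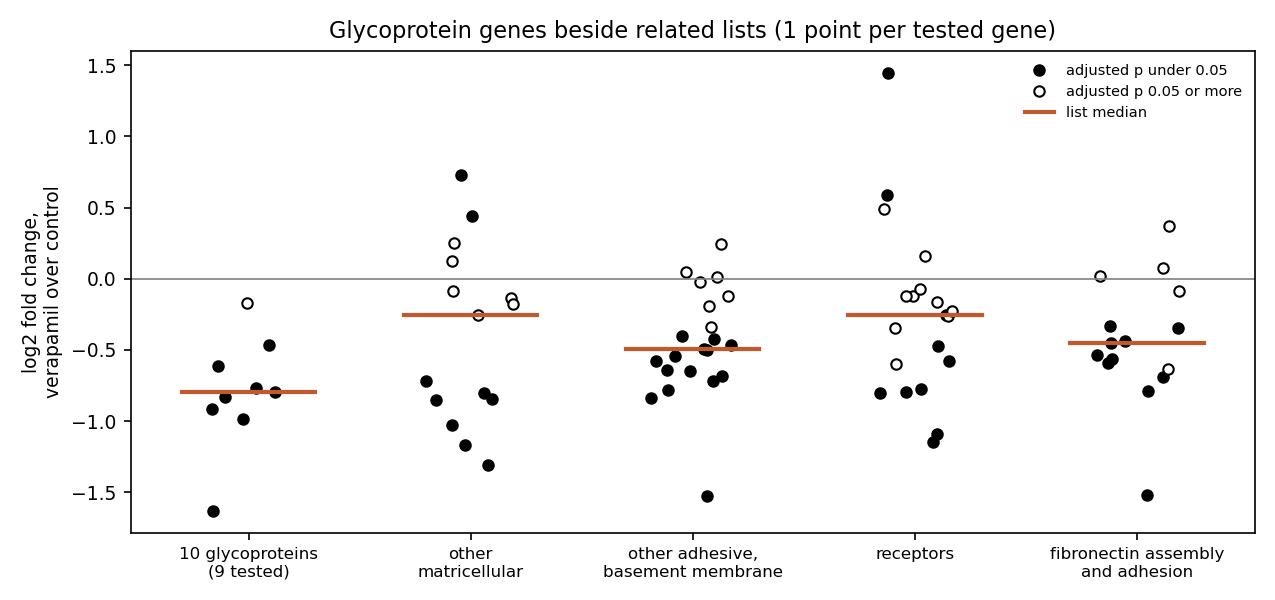
Log2 fold change of every tested gene in the 10-gene set and in 4 related lists, 1 point per gene, filled where the adjusted p is under 0.05, with a bar at each list's median. The median is -0.80 for the set, -0.26 for receptors and -0.25 for other matricellular proteins, and Cd36 is the highest point at 1.45.

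Relatives of the members were mixed. Of 15 other matricellular proteins tested, 7 were lower, 2 higher and 6 not past the test, with a median log2 fold change of -0.25 (-0.49 over the 14 genes with at least 5 CPM in 3 libraries). Ccn2, a matricellular target of TGF-β (-1.31 ± 0.26 SE, adjusted p = 0.0107), Sparcl1, the closest relative of Sparc (-1.17 ± 0.12 SE, adjusted p = 4.51e-04), the testican gene Spock2 (-1.03) and Comp, a pentameric thrombospondin of cartilage (-0.85), fell. Tgfbi, which shares its fasciclin domains with periostin, rose to 148 CPM with verapamil, against 109 CPM in control (0.44 ± 0.13 SE, adjusted p = 0.0363), though its groups overlapped. The Postn to Tgfbi ratio was 19.1, 18.5 and 23.9 with verapamil, against 53.9, 51.0 and 40.8 in control. That log2 ratio differed by -1.24 (exact two-sided permutation p = 0.1, the smallest possible, adjusted 0.133). The tenascin gene Tnr also rose, by 0.73 (adjusted p = 0.0263), and was named after its value was seen. Both rises were lost without verapamil replicate 1 (adjusted p = 0.0987 for Tnr and 0.120 for Tgfbi), verapamil replicate 2 (adjusted p = 0.1004 and 0.127) or control replicate 1 (adjusted p = 0.103 and 0.121), and that of Tgfbi without control replicate 2 (adjusted p = 0.130).

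Basement membrane and other adhesive glycoproteins, the setting in which nidogen-1 works, were lower in 14 of 21 tested genes, with a median of -0.49. The count higher was 0 by edgeR, also at an unadjusted p under 0.05, by DESeq2 and by limma-voom. The laminin chain Lama4 (-0.84), the proteoglycans Agrn (-0.78) and Hspg2 (-0.72), which encode agrin and perlecan, and the integrin ligand gene Npnt (-0.68) fell. Of 15 genes for fibronectin assembly, matrix processing and the adhesion machinery, 10 were lower and 0 higher by edgeR, with a median of -0.45 (1, Tgm2, was higher at an unadjusted p under 0.05 and by DESeq2, and 0 by limma-voom). They included the latent TGF-β binding protein Ltbp1 (-0.79), the focal adhesion protein vinculin, Vcl (-0.69), and Bmp1 (-0.59), the proteinase that trims procollagens.

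Receptors of the members moved in both directions. Of 20 tested, 8 were lower, 2 higher and 10 not past the test, with a median of -0.26. Itga5, the α chain of the classical fibronectin receptor, averaged 187 CPM with verapamil and 414 CPM in control (-1.15 ± 0.29 SE, adjusted p = 0.0279), but it did not pass when verapamil replicate 1, 2 or 3 was left out (adjusted p = 0.0749, 0.0877 and 0.0651), nor with no filter on low counts (adjusted p = 0.0794). Itgb3, the partner of αv in the vitronectin receptor, fell by 0.80 on the log2 scale (adjusted p = 3.85e-04). Itgb8 also fell by 0.80, but did not pass without any 1 of verapamil replicates 1, 2 and 3 or control replicate 1 (adjusted p = 0.0563 to 0.0749). Cd36, a thrombospondin receptor that macrophages also make, rose to 207 CPM with verapamil, against 75.7 CPM in control (1.45 ± 0.19 SE, adjusted p = 0.00266). Stab1, a scavenger receptor of macrophages that takes up SPARC, rose by 0.59 and was chosen for mention with its value known (adjusted p = 0.0306), but not without verapamil replicates 1, 2 or 3 or control replicate 1 (adjusted p = 0.0754 to 0.110). Leaving out verapamil replicate 1, 2 or 3 left 4, 5 or 4 receptors lower and 1 higher, leaving out control replicate 1 left 6 lower and 1 higher, and leaving out control replicate 2 gave 10 lower and 4 higher. The rises went with the macrophage markers given above, whose part in them was not tested.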

How the data were processed

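Gene expression was measured by RNA-seq in 6 mouse osteoblast libraries, 3 with verapamil and 3 controls, prepared from total RNA with a SMARTER mRNA-seq kit per the labels' protocols. The authors deposited 1 table of estimated counts per gene and library, a read count per the file headers, with 67.7% of its values not whole. The build is GRCm38 (mm10) per the submitters' processing notes. Not given in the sources used here were the aligner, the counter, the annotation and the strand setting.

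Estimated counts were rounded, filtered with filterByExpr (minimum count 10, minimum total 15), scaled with TMM factors and tested with edgeR 4.0.16 in R 4.3.3 (quasi-likelihood fit with robust estimation, Benjamini-Hochberg adjustment over 13366 genes, threshold 0.05). The SE was obtained by dividing the size of the log2 fold change by the root of its F statistic. Of the called genes 48.5% were higher with verapamil, against 63.7% with scaling to library totals only. Coordinates are those of RefSeq's gene table for GRCm38.p6, matched on Entrez ID for all 10 genes, and transcript lengths and overlaps those of GENCODE M21. Ratios within a library were compared by exact permutation tests in scipy 1.17.1. The edgeR test was tested on simulated counts with known changes.

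The 10 genes and all lists were chosen with earlier results of these data known. Named genes were the 10, up to 4 called members of each other list with the largest change and a mean of at least 5 CPM, and Col1a1, Tgfbi and Nid2; where no member was called, up to 2 with the highest mean. Values of some genes that this rule takes in are not reported here. The planned Fn1 to Vtn ratio was left out because Vtn was at or under 3 reads in each library. A limit from a count of 0 covers counting error only. Alternatives were other scaling, other filters, DESeq2 1.42.0, limma-voom (limma 3.58.1), a replicate block, counts not rounded, and each library left out in turn.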

Additional observations from a re-analysis of the deposited data

How the results depend on the processing

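The count of the 10 genes called lower was 8 under each of the 9 alternatives that kept all 6 libraries, and 7 to 9 with 1 library left out. No member was called higher and none changed direction under any of the 15 alternatives. Sparc, Fn1, Postn, Tnn, Thbs1, Thbs3 and Nid1 stayed past the threshold in all 15, with the highest adjusted p in Nid1 (0.0482, its log2 fold change ranging from -0.52 to -0.35). Tnc ranged from -0.96 to -0.55 and Thbs2 from -0.27 to -0.09. With 1 library left out, genes called higher over the whole table numbered 1010 to 2452, against 2055 with all libraries, and genes called lower 1222 to 2590, against 2180. The difference in the members' median log2 ratio to Col1a1 was 0.55 to 1.28 with 1 library left out. The submitters' design text refers to 3 pairs, but the labels do not say what a replicate number marks. Same-numbered replicates did not deviate together (correlations of 0.01, -0.17 and -0.13 for numbers 1, 2 and 3), so the main test did not pair them. With 3 libraries per group, such correlations cannot exclude pairing. A replicate block changed the genes called higher to 1364 and lower to 1589, and kept 8 members lower, but did not call Tnr (adjusted p = 0.0697), Tgfbi (adjusted p = 0.0895) or Plin1 (adjusted p = 0.0691); the cause was not tested. Depth limits Vtn, which only the fit without a filter on low counts took in, at 0 to 3 reads per library.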

Other observations

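Markers of further cell types were also measured. Of 9 endothelial markers tested, 3 were lower, 1 was higher and 5 did not pass, and they summed to 51.4 to 53.6 CPM in verapamil libraries and 60.7 to 64.1 CPM in controls. Pecam1 fell by 0.58 and Cdh5 by 0.39 on the log2 scale. Vwf, named with its value known, rose by 0.57 (adjusted p = 0.0180), from 3.88 CPM in control to 5.75 CPM with verapamil. The rise of Vwf did not pass without verapamil replicate 2 or control replicate 1. Of 6 adipocyte markers tested, 2 were higher, Fabp4 (0.59) and Pparg (0.33), 1 was lower, Plin1 (-1.46), and 3 did not pass. Plin1, chosen for mention with its value known, was at 0.266 to 0.584 CPM in verapamil libraries and 0.588 to 1.74 CPM in controls, and its call was lost by limma-voom, with scaling to library totals and in each fit without 1 library except that without control replicate 2 (adjusted p of 0.053 to 0.15). Leaving out any 1 of the verapamil libraries ended the call of Pparg (adjusted p of 0.0758 to 0.0920 by edgeR). Pf4, a chemokine of platelets that macrophages can also make, fell to 28.0 CPM with verapamil, against 59.8 CPM in control (log2 fold change -1.09 ± 0.10 SE). Among hypoxia markers, Egln3 (-3.54), Bnip3 (-2.05), Ero1a (-1.88) and Pdk1 (-1.77) fell most of those above 5 CPM; Ero1a did not pass when verapamil replicate 1, 2 or 3 or control replicate 2 was left out (adjusted p of 0.0618 to 0.0730 by edgeR), nor with no filter on low counts (adjusted p = 0.0745).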
